A study of Mus musculus with 2 samples.

Results

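The genes described here are 47 genes of the autophagy machinery and its cargo receptors, listed by name. The list was chosen with earlier results of these data known. A gene entered where the platform annotation gave a probe set naming it alone. This held for 46 of the 47, out of 30142 genes named in this way. Optn had no such probe set listed and is named only. Of the 46, 44 lay above the floor used here, a mean log2 signal of 4.76 over both arrays, and Atg4d and Tfeb lay below it.

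RNA came from livers of PiZ mice on the C57BL/6 strain, which carry the human Z mutant alpha-1-antitrypsin gene (ATZ) under its own promoter. The mutant protein polymerises in hepatocytes and collects there as globules. Untreated transgenic animals on standard chow, 3 months old, gave both groups: hepatocyte areas with globules and hepatocyte areas without them, cut by laser from stained frozen sections. Each group was 1 array of RNA pooled from 2 mice, so both groups carry the transgene and no liver without it was measured here. With 1 array a group there is no replicate check, no test was possible, and no p-value or SD is given. Every difference is the log2 signal of globule-containing areas minus that of globule-free areas on these 2 arrays.

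Autophagy encloses cytoplasm in a double membrane, the autophagosome, and delivers it to the lysosome for breakdown. A kinase complex around ULK1 starts the process, a lipid kinase complex around Beclin 1 marks the membrane, and a ubiquitin-like conjugation system attaches LC3 and GABARAP proteins to it. Receptors such as p62 bind both the cargo and LC3, and ER-phagy receptors do the same for pieces of endoplasmic reticulum (ER). In hepatocytes, ATZ is a known substrate of autophagy as well as of ER-associated degradation.

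Most of these genes differed little between the areas, and 4 stood at least 2-fold apart. Sqstm1, which encodes the cargo receptor p62, and Ccpg1, an ER-phagy receptor, were higher in globule-containing areas. Atg3, the enzyme that transfers LC3 to lipid, and Atg9a, the lipid scramblase of the vesicles that seed the autophagosome, were lower. Of the 44 genes above the floor, 2 (4.55%) were at least 2-fold higher, where 6.47% of all 15023 genes above the floor were. Likewise 2 (4.55%) were at least 2-fold lower, where 5.26% of all genes were. At a 1.5-fold threshold the counts were 6 higher (13.6%, against 16.0% of all genes) and 5 lower (11.4%, against 11.9%). These shares lie near those of all genes. The median difference was 0.10 over the 44 genes and 0.05 over all genes above the floor, and the median size of the difference, whatever its sign, was 0.40 against 0.32.

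**Figure D1:**
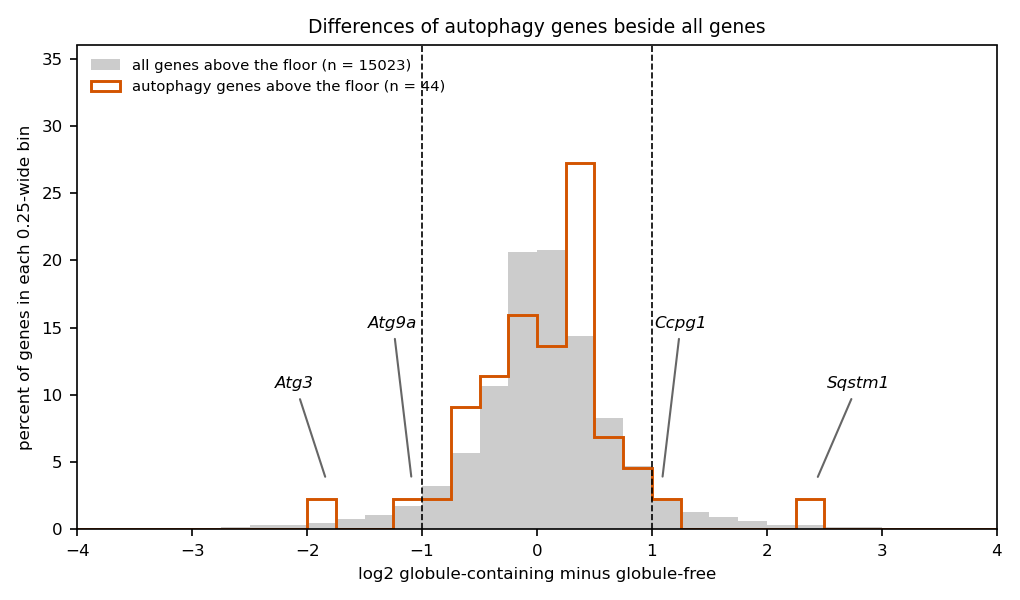
Histogram of the log2 difference, globule-containing minus globule-free, for all 15023 genes above the floor (grey, percent of genes per bin of 0.25) and for the 44 autophagy genes (orange outline). Dashed lines mark 2-fold; Sqstm1 at 2.43 and Atg3 at -1.83 lie apart from the other autophagy genes, and 52 of all genes lie beyond the axis limits of 4 in either direction.

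Scaling bears on all of these values. Centring each array on its median over genes above the floor lowers every difference by 0.10, which takes Ccpg1 to 0.98, just under 2-fold, and turns the sign of Ulk2, Wipi1 and Gabarapl2. Among all genes, 972 were higher and 790 lower by at least 2-fold as deposited, and 789 and 990 after centring. Between a pair of probe sets for 1 gene, over 177 genes with a pair above the floor, the median gap in the difference was 0.17. Member differences below that size are not separated here from differences between probe sets.

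The areas also differed in cell type markers, which stand beside all results below. Hepatocyte markers were measured above background on both arrays, from Hnf4a at 9.12 against 9.86 to Alb at 19.90 against 19.80 (globule-containing against globule-free, as in all pairs of values below). None of 10 hepatocyte markers was 2-fold higher and 2, Cps1 and Tat, were lower. Of the 10, 8 had a negative difference, and 4 were at least 1.5-fold lower, where 11.9% of all genes were. Their log2 summed signal was 21.72 against 22.01. That sum is weighted to the brightest markers, such as Alb, which lay near the highest signal of each array, 19.93 and 19.80. Whether signals that high could still show a difference was not tested. All 11 stellate cell and fibroblast markers above the floor had a higher signal with globules by 2-fold or more, and the log2 of their summed signal was 15.70 against 12.40. Macrophage markers split, with 7 of 16 higher and 4 lower by at least 2-fold and a summed signal of 18.39 against 13.95. Lyz2 and Cd68 were higher, while Clec4f, Vsig4, Marco and Timd4, known from resident Kupffer cells, were lower. S100a8 and S100a9 of neutrophils were higher, but Mpo and Ngp were at background, and Ly6g, Cxcr2 and Camp differed by 0.27, 0.11 and -0.04. Retnlg, below the floor, had 5.11 against 3.92. Its globule-free signal was at background, so its difference is a bound of 0.075 or more. The summed signal of the list, 12.21 against 8.31, was thus mostly that of S100a8 and S100a9. Endothelial markers summed to 12.01 against 11.58 but went both ways. Of 9 above the floor, 6 had a positive difference and 3 a negative one, from -0.80 for Cdh5 to 1.38 for Eng. Of 8 lymphocyte markers 6 were at background on both arrays, as were Krt7 and Cftr of bile duct cells. The other 3 bile duct markers had positive differences, 0.24 for Sox9 and, with globule-free signals at background, at least 0.74 for Epcam and at least 0.07 for Krt19. No marker was at 0 on this log2 scale. Fewer cells of a type and less RNA per cell cannot be told apart in such areas, and the part of other cell types in the autophagy values was not tested.

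Cargo receptors held the widest difference of the whole set. The log2 signal of Sqstm1 was 12.76 where globules were present and 10.33 where they were not, 5.39-fold higher. Of all genes, 137 (0.912%) had a difference at least as high, Sqstm1 itself included. The p62 protein binds ubiquitinated proteins, forms inclusion bodies with them and is itself degraded by autophagy. Tax1bp1, a receptor that recruits the initiation machinery to ubiquitinated aggregates, had 12.00 against 11.23, 1.70-fold higher. Nbr1, a receptor related to p62 in domain structure, had 9.65 against 10.06. Calcoco1, a receptor for ER and Golgi, had 5.65 against 5.99. The 4 measured cargo receptors thus went both ways, with a positive difference for the pair Sqstm1 and Tax1bp1 and a negative one for the pair Nbr1 and Calcoco1, and these signs held under each scaling tried.

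The 3 members listed as ER-phagy receptors all had positive differences, where 8188 of all 15023 genes above the floor did. With 3 genes, this count is no result about these receptors. Calcoco1, the receptor for ER and Golgi listed above with the cargo receptors, had a negative difference, -0.34. Ccpg1, a membrane protein of the ER that binds the ULK complex as well as LC3 and is known as a target of the unfolded protein response, had 10.42 against 9.33, 2.13-fold higher. Across all genes 818 (5.44%) were as high or higher. Tex264, a receptor of broad ER-phagy, had 7.57 against 7.20, and Rtn3, which acts on ER tubules, had 9.05 against 8.76. Both stayed within 1.5-fold. The 5 further ER-phagy receptors of the wider list went both ways. Their differences were -0.48 for Retreg1 (FAM134B), -0.30 for Retreg2, -0.02 for Retreg3, 0.13 for Sec62 and 0.68 for Atl3.

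The start-site regions of these genes with at least 2-fold differences are shown so that their letters can be set beside the elements searched for. Each is the 250 bases before the RefSeq transcription start on GRCm38.p6, 5′ to 3′, with the E-box CACGTG in capitals. Sqstm1 lies at chr11:50210821-50211070 on the minus strand, Ccpg1 at chr9:72985254-72985503 on the plus strand, Atg3 at chr16:45158579-45158828 on the plus strand and Atg9a at chr1:75192011-75192260 on the minus strand.
Sqstm1: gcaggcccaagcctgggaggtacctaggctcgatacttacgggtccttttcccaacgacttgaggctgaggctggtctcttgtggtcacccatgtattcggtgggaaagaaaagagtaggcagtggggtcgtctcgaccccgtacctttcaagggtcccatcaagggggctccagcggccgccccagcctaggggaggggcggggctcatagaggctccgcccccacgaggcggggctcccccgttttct
Ccpg1: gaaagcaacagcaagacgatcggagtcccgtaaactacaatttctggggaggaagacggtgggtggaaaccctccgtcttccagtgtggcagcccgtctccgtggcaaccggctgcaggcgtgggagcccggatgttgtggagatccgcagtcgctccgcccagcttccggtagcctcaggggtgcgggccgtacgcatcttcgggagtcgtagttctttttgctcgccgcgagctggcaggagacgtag
Atg3: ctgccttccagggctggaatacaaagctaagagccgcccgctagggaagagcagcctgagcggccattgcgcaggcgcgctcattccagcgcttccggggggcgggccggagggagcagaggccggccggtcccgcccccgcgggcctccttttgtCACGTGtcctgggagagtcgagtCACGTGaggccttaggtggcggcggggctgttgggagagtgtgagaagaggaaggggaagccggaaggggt
Atg9a: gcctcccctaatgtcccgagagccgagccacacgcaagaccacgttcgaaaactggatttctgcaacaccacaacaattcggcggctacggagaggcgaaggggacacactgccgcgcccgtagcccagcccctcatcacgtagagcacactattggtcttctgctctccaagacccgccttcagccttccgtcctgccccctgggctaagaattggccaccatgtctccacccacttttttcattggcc
Atg3 alone among these 4 has an E-box in the window, 2 of them, beginning 94 and 71 bases before the start. The one at 71 bases is flanked to TCACGTGA, which overlaps the E-box and is the form known for TFEB and its relatives.

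Membrane attachment of LC3 runs through conjugating enzymes, and here the differences pointed both ways. Atg3, the E2-like enzyme that passes LC3 and GABARAP proteins to phosphatidylethanolamine, had 10.14 against 11.97, 3.56-fold lower. Of all genes 250 (1.66%) were as low or lower. Atg10, the other E2-like enzyme, which passes ATG12 to ATG5, had 6.58 against 5.72, 1.82-fold higher. Atg7, the E1-like enzyme that serves both, had 7.39 against 6.98. The products of the ATG12 branch were mixed: Atg5 had 8.76 against 8.35, Atg12 6.54 against 7.00, and Atg16l1, which places the complex on the membrane, 5.52 against 5.36. So Atg3 stood apart in size from every other conjugation gene measured.

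The ATG4 proteases cut LC3 precursors and release LC3 from membranes. Atg4a had 8.13 against 8.20, Atg4b 5.77 against 5.45 and Atg4c 7.01 against 6.63, all within 1.5-fold. Atg4d was at background on both arrays, at 4.48 and 4.37. A second probe set, which names Atg4a together with its pseudogene Atg4a-ps, was left out; with it the Atg4a difference was 0.34 in place of -0.07.

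The LC3 and GABARAP proteins that these enzymes attach were not shifted together. Gabarap had 6.34 against 5.64, 1.63-fold higher. Gabarapl1, a close relative, had 10.55 against 11.08, 1.45-fold lower. Map1lc3b, the most used marker of autophagosomes, had 7.20 against 7.28, and Gabarapl2 had 9.79 against 9.78. Map1lc3a had 5.05 against 4.74, with the globule-free signal at background, so its difference is a bound of 0.01 or more. None of the 5 was 2-fold apart. Both widest differences in this family, of Gabarap and Gabarapl1, had opposite signs.

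**Figure D2:**
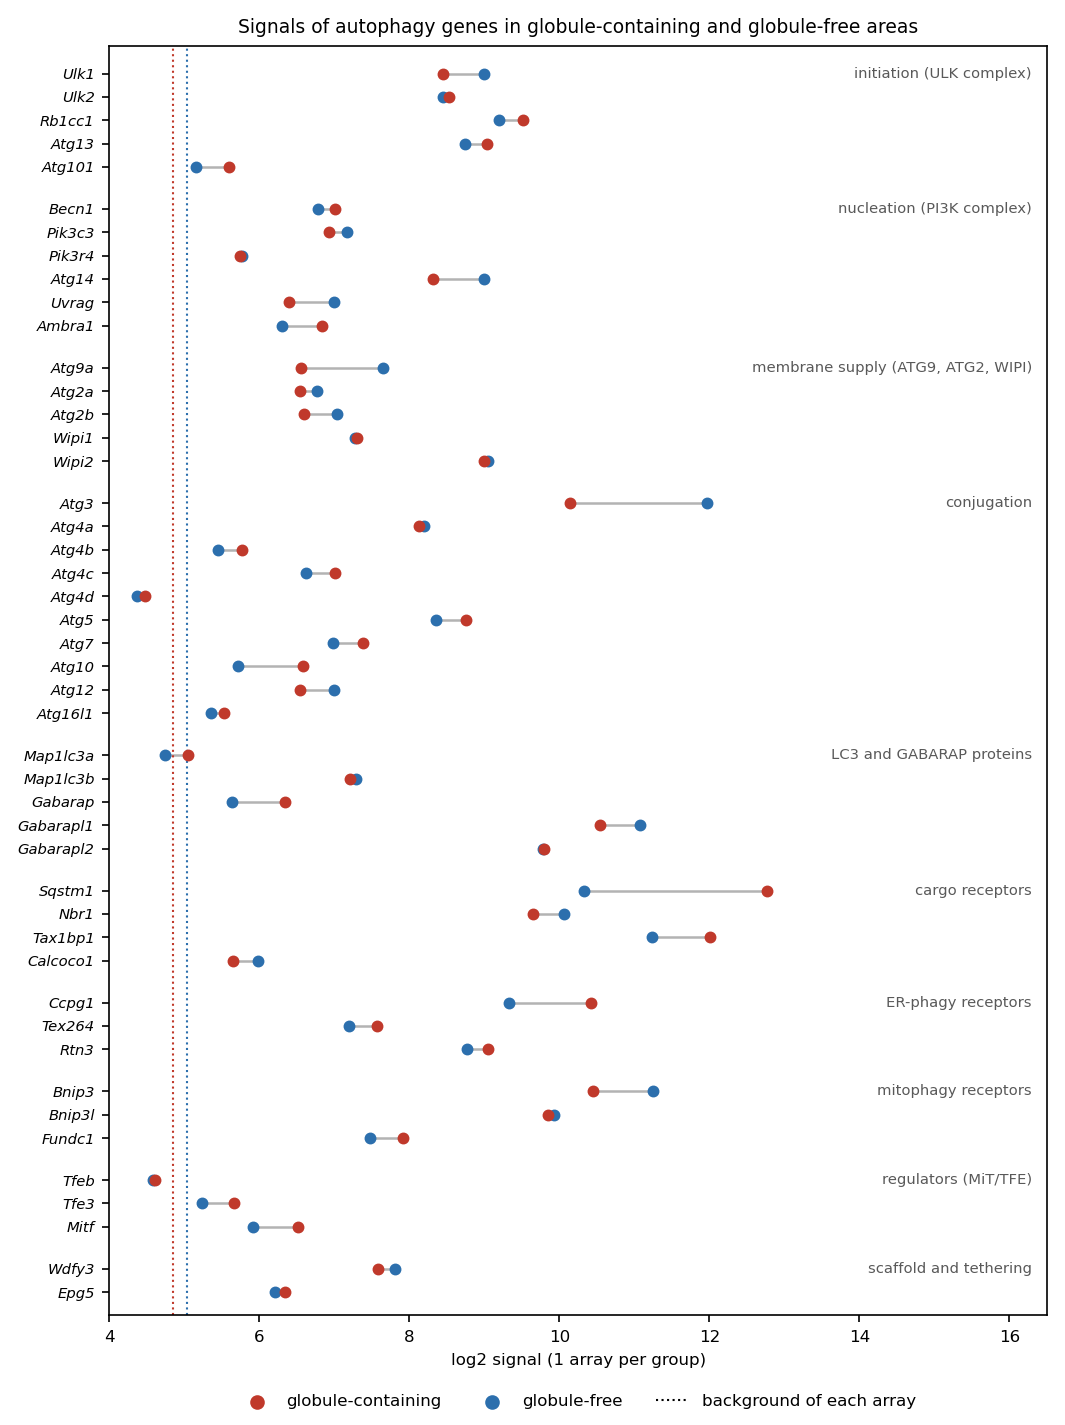
Log2 signal of each of the 46 measured autophagy genes in globule-containing (red) and globule-free (blue) areas, 1 array each, grouped by role, with dotted lines at the background of each array (4.85 and 5.04). Wide gaps are seen for Sqstm1, Atg3, Atg9a and Ccpg1, most other pairs of points lie close together, and levels of different genes are not comparable because their probes differ.

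Genes that start the process all lay within 1.5-fold. Of the 5 genes of the ULK complex, 4 had a positive difference, where 8188 of all 15023 genes above the floor did. At 1.5-fold, 16.0% of all genes were higher and 11.9% lower. With 5 genes, these counts are no result about the complex. Ulk1, the main initiating kinase, had 8.45 against 8.99, 1.46-fold lower, while Ulk2 had 8.53 against 8.45. Rb1cc1, the scaffold FIP200, had 9.52 against 9.19. Atg13, which holds the complex together, had 9.04 against 8.74, and its partner Atg101 5.60 against 5.15. The kinase and its scaffold subunits thus differed in sign, and Ulk2 turned negative after centring.

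None of the 6 genes listed for the lipid kinase complex was 2-fold apart. Becn1, Beclin 1, had 7.01 against 6.79, Pik3c3, the catalytic subunit VPS34, 6.92 against 7.17, and Pik3r4, its regulatory kinase-like subunit, 5.75 against 5.77. The core therefore lay within 1.2-fold throughout. Atg14, which directs the complex to forming autophagosomes, had 8.31 against 8.99, 1.60-fold lower. Uvrag, which directs it to endosomes instead, had a pair of probe sets. The brighter read 8.18 against 8.95 and the other 4.62 against 5.04, at background on the globule-containing array. Atg14 and Uvrag were thus lower in globule-containing areas, whereas Ambra1, a regulator that links the complex to ULK1, had 6.83 against 6.31. Of all genes, 9.86% were as low as Atg14 or lower, and 11.5% as low as the mean of the Uvrag pair. With 6 genes, these differences are no result about the complex.

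Of 5 membrane supply genes, 4 had a negative difference, where 6832 of all 15023 genes above the floor did. Wipi2, 1 of the 4, and Wipi1, which turned negative after centring, lay within the 0.17 gap between probe sets. Atg9a had 6.56 against 7.65, 2.13-fold lower. Across all genes 683 (4.55%) were as low or lower. Atg2b, one of the ATG2 lipid transfer proteins that work with ATG9A, had 6.59 against 7.04, and Atg2a had 6.54 against 6.77. The proteins that read the lipid mark, Wipi1 and Wipi2, had 7.31 against 7.28 and 8.99 against 9.04. Of all genes, 16.0% were as low as Atg2b or lower, and 26.5% as low as Atg2a. With 5 genes, these counts are no result about membrane supply.

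Mitophagy receptors sit on the outer mitochondrial membrane and bind LC3 proteins. Bnip3, known as a hypoxia-inducible receptor, had 10.45 against 11.25, 1.74-fold lower, while its relative Bnip3l (NIX) had 9.85 against 9.92. Fundc1 had 7.92 against 7.47. The 3 receptors thus spread from -0.80 to 0.45. Wdfy3, the large scaffold ALFY of aggregate clearance, had 7.58 against 7.81, and Epg5, a tether of autophagosomes to late endosomes and lysosomes, had 6.34 against 6.21.

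Transcription factors of the MiT/TFE family switch on autophagy and lysosome genes when they enter the nucleus, a step that RNA levels do not show. Mitf had 6.51 against 5.92, a difference of 0.59, and Tfe3 had 5.67 against 5.23. Tfeb was at background on both arrays, at 4.61 and 4.58. Among 19 of their lysosomal target genes above the floor, 4 were at least 2-fold higher and none lower, where 6.47% of all genes were higher and 5.26% lower. At that share a count of 0 lower among 19 genes is no result about the list. Gpnmb was 277-fold higher, at 13.27 against 5.16, and Atp6v0d2 33.8-fold, at 10.58 against 5.50. Both globule-free signals lay little above the background of that array, 5.04, so these fold sizes are uncertain. Psap, the saposin precursor, was 4.27-fold higher and Hexa 3.35-fold. Ctsb, cathepsin B, had 14.90 against 13.97. Mcoln1, the lysosomal calcium channel, had 6.92 against 7.16. Gpnmb is also a marker of macrophages, whose summed signal stood at 18.39 against 13.95, and Mitf is expressed in macrophages as well. That sum was mostly Lyz2, at 17.96 against 12.62. The median of the 16 markers was 0.37, with 4 at least 2-fold lower and Adgre1, C1qa, C1qb and C1qc between -0.08 and 0.12. Their part in these values was not tested.

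**Figure D3:**
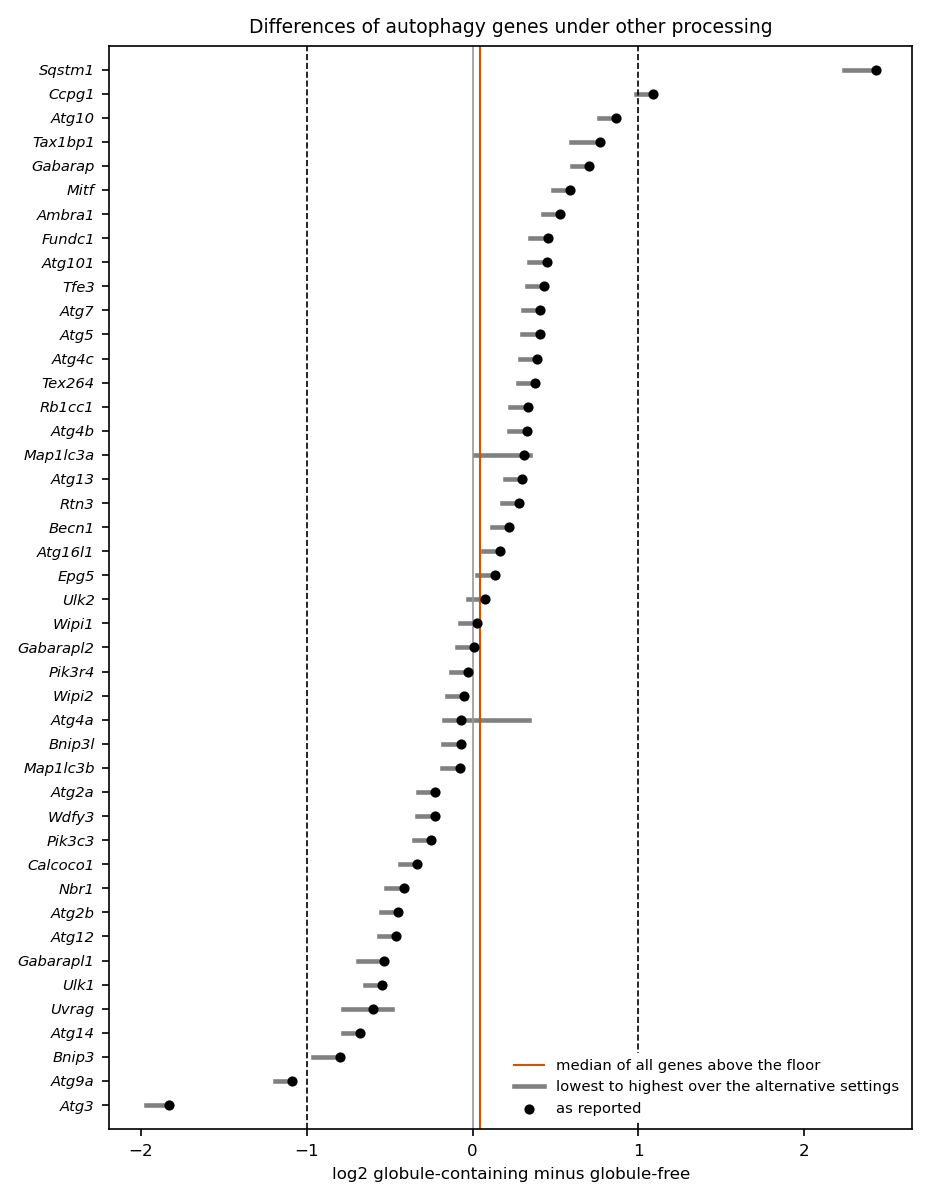
Log2 difference of each of the 44 autophagy genes above the floor as reported (black points), with the range over the alternative settings (grey bars); the orange line is the median of all genes, 0.05, and dashed lines mark 2-fold. Sqstm1, Atg3 and Atg9a stay beyond 2-fold over all settings drawn, and Ccpg1 crosses the line at its lower end, 0.98.

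The promoter windows were searched for the same letters in all genes, on both strands. Promoters were listed for 38 of the 47 genes. The E-box CACGTG occurred in 4 of them (10.5%) and in 6.86% of 27025 genes overall. Besides Atg3, the matches were in Atg5, Atg7 and Bnip3, which are printed as 60 bases around the E-box in capitals, at chr10:44268279-44268338 (plus strand), chr6:114670937-114670996 (plus strand) and chr7:138909582-138909641 (minus strand) on GRCm38.p6.
Atg5: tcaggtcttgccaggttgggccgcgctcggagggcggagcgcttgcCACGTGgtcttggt
Atg7: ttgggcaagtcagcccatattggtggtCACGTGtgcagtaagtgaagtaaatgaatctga
Bnip3: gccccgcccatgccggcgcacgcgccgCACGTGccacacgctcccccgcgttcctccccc
Genes with the E-box went both ways, with differences of -1.83 for Atg3, -0.80 for Bnip3, 0.40 for Atg5 and 0.41 for Atg7. The longer TCACGTGA was found in Atg3 alone of the 38, and in 0.907% of all genes.

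The antioxidant response element core TGACNNNGC, the kind bound by NRF2, occurred in 5 of the 38 promoters (13.2%) and in 11.5% of all genes. The 5 genes were Ulk2, Atg13, Tax1bp1, Rtn3 and Mitf, with differences from 0.08 to 0.77, of which that of Ulk2 turned negative under centring, quantile normalization and loess correction. Windows of 60 bases are shown for the pair with the largest differences, with the core in capitals, at chr6:52713934-52713993 and chr6:97929757-97929816, both on the plus strand.
Tax1bp1: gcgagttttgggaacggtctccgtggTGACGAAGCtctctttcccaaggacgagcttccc
Mitf: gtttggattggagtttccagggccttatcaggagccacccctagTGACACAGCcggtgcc
Each gene has more than 1 start listed, and the window shown belongs to the first that holds the core. Sqstm1 had no match to this core in its 250 bases. Sites further from the start were not searched, for this or any other element. The elements TGATGNAA (ATF4 type) and GTAAACA (FOXO type) and the ER stress element were in none of the 38, and in 3.91%, 3.54% and 0.13% of all genes.

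The KEAP1-NRF2 axis had the highest median difference among the other pathway lists. The p62 protein holds KEAP1, the inhibitor of NRF2, and the gene Sqstm1 is a known NRF2 target. Of 8 genes of the KEAP1-NRF2 axis above the floor, 6 were at least 2-fold higher and none lower, with a median difference of 1.53, where 6.47% of all genes were higher and 5.26% lower. Nfe2l2, NRF2 itself, had 11.31 against 10.00, 2.49-fold higher, whereas Keap1 had 6.68 against 6.64. Srxn1, which repairs peroxiredoxins, was 27.9-fold higher. Slc7a11, a cystine transporter, and Nqo1, a quinone reductase, were at least 18.9-fold and at least 7.63-fold higher, both with a globule-free signal at background. Txnrd1, thioredoxin reductase, was 2.93-fold higher, and Gclc, of glutathione synthesis, 2.84-fold. In 3 scalings the count of 6 was the same. This list was chosen with earlier results of these data known, so its direction is not independent evidence.

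Of 29 genes of mTORC1 and AMPK signalling above the floor, 2 were at least 2-fold higher and 2 lower, with a median of -0.04. These counts lie near the shares of all genes, 6.47% higher and 5.26% lower. Prkag1, a regulatory subunit of AMPK, had 9.02 against 11.30, 4.88-fold lower, and Prkab2, another AMPK subunit, had 6.66 against 5.19, 2.76-fold higher. Rheb, the direct activator of mTORC1, had 11.28 against 10.18, 2.14-fold higher, and lay under 2-fold after centring, quantile normalization and loess correction. Nprl2, a subunit of the GATOR complex that restrains mTORC1 when amino acids are short, was 2.74-fold lower. Rragd, a GTPase that brings mTORC1 to lysosomes, had 6.50 against 5.67. The catalytic subunits of AMPK were within 2-fold, at 7.53 against 6.85 for Prkaa1 and 10.18 against 10.40 for Prkaa2.

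Steps around the core machinery were mostly within 2-fold. Among 14 genes of autophagosome and lysosome fusion, 3 were at least 2-fold higher and none lower: Stx7 at 2.27-fold, Rab7, the GTPase of late endosomes, at 2.12-fold, and Vamp7 at 2.10-fold. The shares of all genes were 6.47% higher and 5.26% lower. After centring, Stx7 alone of the 14 was 2-fold higher, near the 5.25% of all genes that were higher under that scaling. Vps41, a tethering subunit, had 9.53 against 10.39, and Snap29, a fusion SNARE, 8.80 against 8.12. Of 13 accessory genes of nucleation, Trp53inp1, a p53 target that binds LC3, was 3.16-fold higher, the one gene past 2-fold, and Sh3glb1, a Beclin 1 partner, was 1.84-fold higher. Next in size were Wdr45 at 0.65, Mtmr14 at 0.58 and Mtmr3 at 0.42. Among 17 other selective receptors none was 2-fold apart; the widest were Ncoa4, the ferritin receptor, at -0.83, Ddrgk1 at -0.77, Atl3 at 0.68, Tbk1, the kinase that activates receptors, at 0.63, and Stbd1, the glycogen receptor, at 0.62. In the list of other transcriptional regulators, Ddit3, the stress factor CHOP, was 3.09-fold and Creb1 2.04-fold higher, the latter under 2-fold after centring, quantile normalization and loess correction. Ppara, a nuclear receptor that promotes autophagy in fasting, was 2.80-fold lower. Nr1h4, the bile acid receptor FXR, which represses autophagy genes, had 10.52 against 11.17, and Zkscan3, a repressor of autophagy genes, had 7.80 against 7.31. Over all 110 of these other genes above the floor, 18 were at least 2-fold higher, where 6.47% of all genes were, and 3 lower, where 5.26% were. After centring, quantile normalization or loess correction the counts were 14 and 3. Of the 18 higher as reported, 6 were of the KEAP1-NRF2 axis and 4 were lysosomal targets, Gpnmb among them. The lists were chosen with earlier results of these data known, so the pooled count is not independent evidence.

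**Figure D4:**
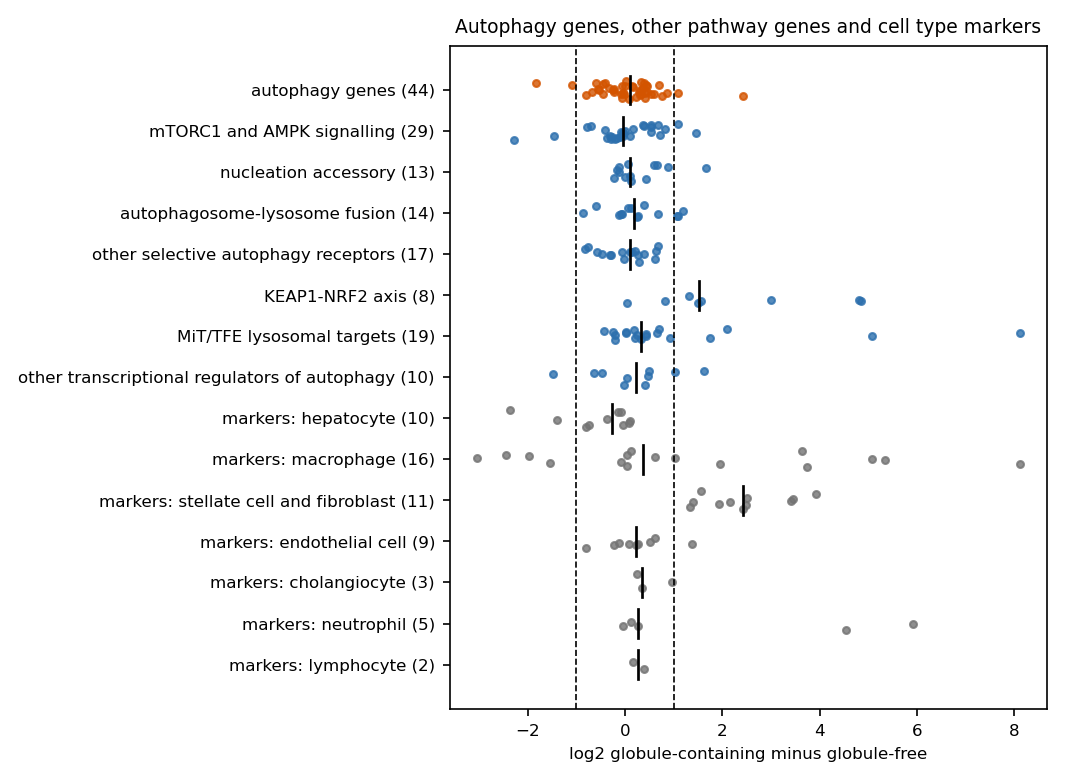
Log2 difference of each gene above the floor, 1 point per gene, for the 44 autophagy genes (orange), the other pathway lists (blue) and cell type markers (grey), with the number of genes in brackets and a black bar at each median; dashed lines mark 2-fold, and vertical scatter carries no meaning. The autophagy genes centre at 0.10, the KEAP1-NRF2 axis at 1.53 and stellate cell markers at 2.43.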

How the data were processed

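Per the labels' protocols, 50 ng of laser-captured RNA per array was amplified, labelled and hybridised. The deposited values are log2 signals, 1 per probe set (72688 probe sets), and the log2 scale was read from the values, which run from 1.85 to 19.93. The Transcriptome Analysis Console is named per the submitters' processing notes. Background correction, normalization and build were steps not given in the sources used here.

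Of the 72688 probe sets, 32750 were annotated and 39938 had no gene listed. Of the annotated, 30604 named 1 gene and 2146 several, which were left out. Through Entrez IDs 22818 matched RefSeq (GRCm38.p6), updating 827 symbols. Probe sets of 1 gene were averaged. The floor of 4.76 is the median over probe sets naming 1 gene. Background, a measure chosen after values were seen, is 4.85 with globules and 5.04 without: 95% of the 1721 probe sets for odorant and pheromone receptors, silent in liver, lie below it. A fold against a value at background is a lower bound. Promoters came from RefSeq, matched by symbol. Counting was tested on simulated arrays. All 46 members are named; from each other list, genes with the largest differences are named, plus Keap1, Nfe2l2, Gpnmb and Mcoln1. Further ER-phagy receptors, Prkaa1, Prkaa2 and single markers were picked by role after their values were seen. Members and lists were chosen with earlier results of these data known. The number of arrays limits the precision. Python 3.11.15, numpy 2.4.6, pandas 2.3.3, statsmodels 0.14.6 and matplotlib 3.10.9 were used.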

Additional observations from a re-analysis of the deposited data

How the results depend on the processing

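The count of autophagy genes at least 2-fold higher was 2 as reported and 1 after centring each array on its median, quantile normalization or loess correction, where Ccpg1 lay just under the threshold (0.98 at its lowest). It was 6 at a 1.5-fold and 1 at a 3-fold threshold, where the lower counts were 5 and 1. The lower count was 2 under the other settings. The median over autophagy genes ran from -0.02 to 0.15. The lowest was over the 30 genes left with the floor at the 75th percentile. The highest was over 44 genes with probe sets naming several genes included. Of 338 single-gene differences recomputed, 334 moved by less than the 0.17 gap between probe sets. The 4 that moved by more were those of Uvrag (brightest probe set, -0.78), Atg4a, Map1lc3a (dim values raised, 0.01) and Sqstm1 (quantile normalization, 2.24). Outside the set, chosen after seeing the data, the fusion genes at least 2-fold higher were 3 as reported and 1 after each of these 3 scalings. The mTORC1/AMPK and the other regulator lists each went from 2 higher to 1, without Rheb and Creb1. No paired analysis was possible because each group is 1 array, and no array could be left out. Signal over background limits Atg4d, Tfeb and Map1lc3a.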
